A study of Danio rerio with 22 samples.

Results

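The gene described here is epcam (ENSDARG00000040534), 1 of the 32057 genes in each library, which encodes the epithelial cell adhesion molecule EpCAM. It was chosen because it was higher in W-hybrid than in Z-hybrid germ cells at each age in these same libraries, so its difference between the hybrids is given as a description, without a test. Both hybrids are crosses of the Nadia strain with Tg(ziwi:GFP) fish of the Tupfel long-fin background. W-hybrid larvae carry a W sex locus from a WW Nadia parent, and Z-hybrid larvae carry none because their Nadia parent was ZZ. The direction of each cross and its parents cannot be told apart from the W locus. In both hybrids the ziwi promoter, active in germ cells, drives GFP, and GFP-positive cells were dissociated from the gonads of pooled larvae and sorted.

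There were 3 W-hybrid and 3 Z-hybrid libraries of germ cells at 10 days post fertilization (dpf) and 4 of each at 12 dpf by Smart-seq. By Quartz-seq there were 2 W-hybrid libraries and 1 Z-hybrid library at 12 dpf, and again 2 and 1 at 14 dpf. The 2 trunk libraries, from 10-dpf larvae by Smart-seq, served as the negative control, and the labels do not say of which hybrid they were. Method and experiment cannot be told apart, because all Quartz-seq libraries belonged to 1 experiment. Nothing in the labels ties the replicates to separate clutches, so the p-values measure only the spread between these libraries.

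EpCAM is a membrane protein of epithelial cells whose extracellular part binds EpCAM on the neighbouring cell without calcium. In mammals it forms complexes with claudin-7, is cut by the protease matriptase, and can be shed by ADAM17 and then cleaved by gamma-secretase. The intracellular piece released in this way acts together with FHL2, beta-catenin and LEF1. In the mouse, EpCAM is also found on primordial germ cells and spermatogonia, and in zebrafish it is known from the embryonic enveloping layer and the skin.

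Total counts lay between 13556577 and 37224647 per library. The single Z-hybrid libraries by Quartz-seq stood apart in that 16597 genes at 12 dpf and 16617 at 14 dpf had at least 10 counts, against 18966 to 20378 in the W-hybrid libraries by that method. The summed TPM (a transcript level scaled for gene length and depth) of 15 germ cell genes lay between 3765 and 24603 in the germ cell libraries, against 1.44 and 1.77 in trunk. The summed TPM of 27 epidermal genes was 37315 and 99354 in the trunk libraries, so that both held epidermal RNA. Muscle genes differed between the trunk libraries, with a summed TPM of 6819 in one and 120.46 in the other.

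At 10 dpf, epcam was at 81.5, 37.0 and 31.7 TPM in W-hybrid germ cells, against 6.16, 12.0 and 13.7 TPM in Z-hybrid germ cells. Every W-hybrid library lay above every Z-hybrid library, and replicate 1 of the W-hybrid was the highest of all germ cell libraries. The means were 50.1 ± 27.3 TPM in W-hybrid germ cells, against 10.6 ± 3.94 TPM in the Z-hybrid (SD, n = 3 each), a ratio of 4.72. Over all 20080 genes tested at 10 dpf, 9.28% had every W-hybrid library above every Z-hybrid library. The fitted log2 fold change of epcam was 2.42 with a standard error of 0.43, and without that W-hybrid replicate it was 1.90.

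By Smart-seq at 12 dpf, epcam was at 46.8, 59.4, 33.3 and 47.7 TPM in W-hybrid germ cells, against 11.2, 19.8, 16.7 and 24.2 TPM in Z-hybrid germ cells. The groups again did not overlap, but the highest Z-hybrid library came nearer to the lowest W-hybrid library than at 10 dpf. The means were 46.8 ± 10.7 TPM in W-hybrid germ cells, against 18 ± 5.49 TPM in the Z-hybrid (SD, n = 4 each), a ratio of 2.60. Among 20066 genes tested here, 3.08% had such a separation in this direction. The fitted log2 fold change of epcam was 1.35 with a standard error of 0.27. Whether the difference between the hybrids was itself smaller at 12 than at 10 dpf was not tested.

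By Quartz-seq at 12 dpf, epcam was at 51.8 and 56.6 TPM in W-hybrid germ cells and at 6.89 TPM in the single Z-hybrid library. The value of that Z-hybrid library rests on 39 counts, for which an exact Poisson interval at 95% runs from 4.90 to 9.42 TPM. By Quartz-seq at 14 dpf, epcam was at 43.8 and 76.0 TPM in W-hybrid germ cells and at 22.3 TPM in the Z-hybrid library. The 385 counts in that library give an interval of 20.1 to 24.6 TPM, which covers counting error only, as does the one before it. Ratios of the means were 7.87 at 12 dpf and 2.69 at 14 dpf, and the Z-hybrid values have no replicate. With 2 libraries against 1, a separation in this direction was common, at 43.8% of 23154 genes at 12 dpf and 50.9% at 14 dpf. The fitted log2 fold changes of epcam, with standard errors, were 3.48 ± 0.57 at 12 dpf and 1.06 ± 0.48 at 14 dpf. These standard errors draw on the spread between the W-hybrid libraries, as the Z-hybrid has 1 library at each age. At 14 dpf the value was 0.61 without W-hybrid replicate 2 and 1.41 by library size alone. Over all 23154 genes the median log2 fold change was 0.33 at 12 dpf and 0.31 at 14 dpf. By library size alone the median at 14 dpf was 0.64.

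**Figure D1:**
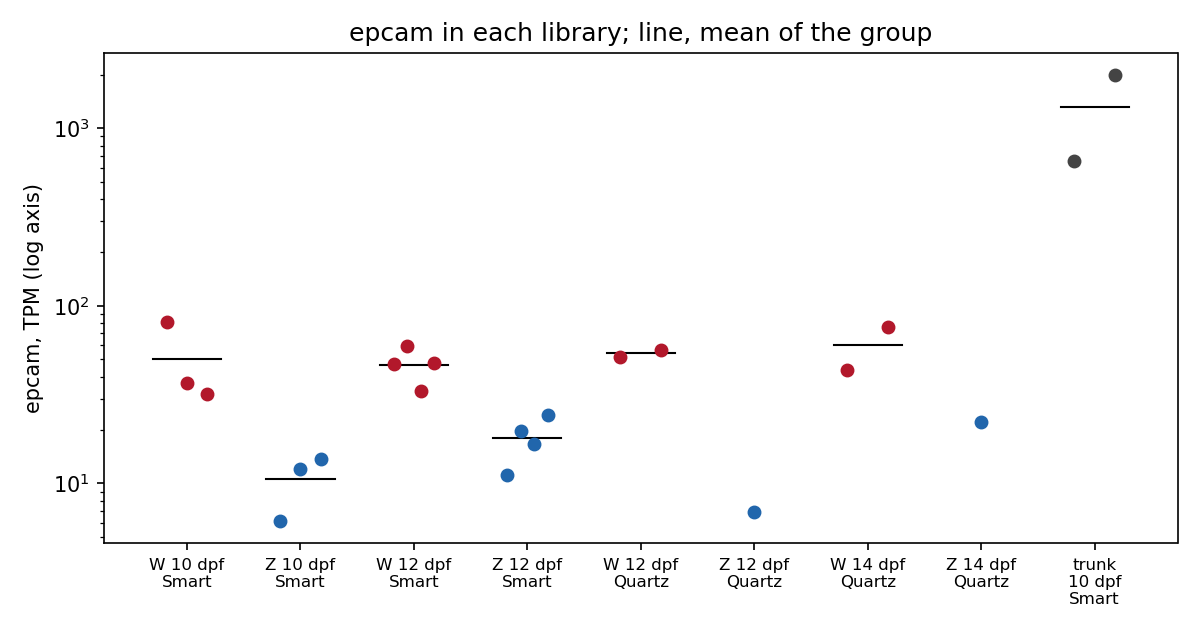
Each point is the level of epcam in 1 library in TPM on a log axis, with libraries grouped by hybrid, age and method, and a line at the mean of each group of more than 1 library. The W-hybrid libraries (31.7 to 81.5 TPM) lie above all Z-hybrid libraries (6.16 to 24.2 TPM), and both trunk libraries (659 and 1991 TPM) lie above all germ cell libraries.

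Taking the methods and ages together, the 11 W-hybrid libraries had a median of 47.7 TPM of epcam, with a lowest value of 31.7 and a highest of 81.5. The 9 Z-hybrid libraries had a median of 13.7 TPM, with a lowest value of 6.16 and a highest of 24.2. The order of the group means from low to high ran through the Z-hybrid (12 dpf Quartz-seq, 10 dpf, 12 dpf Smart-seq, 14 dpf), then the W-hybrid (12 dpf Smart-seq, 10 dpf, 12 dpf Quartz-seq, 14 dpf), and ended with trunk. Neighbouring Z-hybrid groups overlapped in range, as did neighbouring W-hybrid groups. The only gaps in this order lay between the hybrids and between germ cells and trunk.

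In counts, epcam had 481 to 1545 per W-hybrid library and 39 to 397 per Z-hybrid library. Ranked by TPM among the genes of a library, it stood between place 2237 and place 4625 in W-hybrid germ cells and between place 5309 and place 10968 in Z-hybrid germ cells. It was thus detected in all 20 germ cell libraries, at a middling level in the Z-hybrid.

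Such a complete separation over all germ cell libraries was rare among genes. Of 24453 genes with enough counts, 10 (0.0409%) had every W-hybrid library above every Z-hybrid library, epcam among them, and 1 (0.00409%), MTX3, had every W-hybrid library below. Because epcam was chosen for this contrast, nothing is read from its place on that list. The other 9 genes above, named after their values were seen, were klhl43, si:dkeyp-15f12.4, loc100332737, si:dkey-20j1.4, zgc:100951, ENSDARG00000101254 and the unnamed ENSDARG00000077712, ENSDARG00000112301 and ENSDARG00000115096. All of these were at 0 TPM in at least 1 Z-hybrid library. Their median in the W-hybrid lay between 1.23 TPM for klhl43 and 35.7 TPM for si:dkeyp-15f12.4.

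Comparisons between ages are another contrast than the one that chose the gene, but they use the same libraries and are not independent of that choice. In the W-hybrid by Smart-seq, epcam did not change detectably, with 46.8 ± 10.7 TPM at 12 dpf (SD, n = 4) and 50.1 ± 27.3 TPM at 10 dpf (SD, n = 3). The log2 fold change of epcam at 12 over 10 dpf was -0.14 with a standard error of 0.28 (edgeR's quasi-likelihood test, adjusted p = 0.861), and without the high 10-dpf replicate 1 it was 0.37. In that comparison 0.181% of 20474 genes were called, where a call required a change of 1.5-fold or more, an adjusted p below 0.05 and a mean above 5 TPM in the higher group.

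In the Z-hybrid by Smart-seq, epcam averaged 18 ± 5.49 TPM at 12 dpf (SD, n = 4) and 10.6 ± 3.94 TPM at 10 dpf (SD, n = 3). The ranges overlapped, since 1 of the 12-dpf libraries (11.2 TPM) lay below 2 of the 10-dpf libraries. The log2 fold change of epcam was 0.96 with a standard error of 0.35 and did not pass the test (edgeR, adjusted p = 0.156). Without Z-hybrid replicate 1 at 12 dpf it passed, at 1.20 (adjusted p = 0.0275), and over all alternatives the adjusted p ran from 0.0275 to 0.453. Of 20428 genes, 8 (0.0392%) were called in this comparison, and between 0 and 1555 when 1 library was left out.

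From Quartz-seq, epcam in the W-hybrid averaged 59.9 ± 22.7 TPM at 14 dpf and 54.2 ± 3.39 TPM at 12 dpf (SD, n = 2 each). The log2 fold change of epcam was -0.03 with a standard error of 0.37 (edgeR, adjusted p = 1), in a comparison with 0.0130% of 23154 genes called. The Z-hybrid values at the same ages were 22.3 TPM at 14 dpf and 6.89 TPM at 12 dpf, a ratio of 3.23 between single libraries that has no replicate check.

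Between the methods, epcam was at 51.8 and 56.6 TPM by Quartz-seq and at 33.3 to 59.4 TPM by Smart-seq in 12-dpf W-hybrid germ cells, so that the Quartz-seq values lay within the Smart-seq range on the TPM scale. Scaled by library total alone they lay below it, at 30.2 and 33.1 CPM (counts scaled to the library total) by Quartz-seq and 35.5 to 65.0 CPM by Smart-seq. The log2 fold change of epcam from counts, Quartz-seq over Smart-seq, was -0.17 with a standard error of 0.28 (edgeR, adjusted p = 0.62), or -0.67 by library size alone (adjusted p = 0.0625), while the ratio of mean TPM was 1.16. This comparison called 41.7% of 21307 genes, 54.6% of them higher by Quartz-seq, or 39.5% when counts were scaled by library size alone. Of the 20 tested genes of EpCAM binding, cleavage and signalling, 9 rose by Quartz-seq and 2 fell, where 22.8% of all genes rose and 18.9% fell. Among those that rose were cdh1 (E-cadherin), with 194 TPM by Quartz-seq and 52.0 TPM by Smart-seq, and CTNNB1 (beta-catenin), with 386 and 49.6 TPM in the same order. In the Z-hybrid at 12 dpf, epcam was at 6.89 TPM in the Quartz-seq library, under the Smart-seq values of 11.2 to 24.2 TPM.

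Trunk had far more epcam than germ cells. At 10 dpf, W-hybrid germ cells had 81.5, 37.0 and 31.7 TPM and Z-hybrid germ cells 6.16, 12.0 and 13.7 TPM, against 659 and 1991 TPM in trunk. The gene took rank 237 and rank 86 by TPM in the trunk libraries. Mean epcam in W-hybrid germ cells was 3.78% of that in trunk, and in Z-hybrid germ cells 0.80%. In a bulk library, fewer cells of a type and less RNA per cell cannot be told apart.

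The log2 fold change of epcam against trunk was -5.59 with a standard error of 0.64 in W-hybrid germ cells (edgeR, adjusted p = 3.32e-05) and -8.02 with a standard error of 0.72 in Z-hybrid germ cells (adjusted p = 5.91e-06). The median log2 fold change over all 22024 genes tested was 0.33 and 0.38, and relative to these medians epcam was at -5.92 and -8.41. With counts scaled by library size alone the medians of all genes were 1.07 and 1.23, and relative to them epcam was at -5.81 in W-hybrid germ cells and -8.30 in Z-hybrid germ cells. The trunk libraries differed in epcam by a factor that shifts these values. Without trunk replicate 2, the higher one, the log2 fold changes were -4.25 in the W-hybrid and -6.68 in the Z-hybrid, and without trunk replicate 1 they were -6.29 and -8.71. Of the genes tested, 19.9% were called lower and 23.0% higher in W-hybrid germ cells than in trunk, and 19.6% and 23.7% in Z-hybrid germ cells. By library size alone the share of calls that were higher moved to 68.5%, against 53.5%, in the W-hybrid and to 71.9%, against 54.7%, in the Z-hybrid.

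Most epidermal genes were far lower in sorted germ cells than in trunk. Of the 27 epidermal genes, 23 were called lower in W-hybrid germ cells than in trunk and none higher, and in the Z-hybrid these counts were 24 and 0. The median log2 fold change of the list was -6.51 in the W-hybrid and -6.69 in the Z-hybrid. The keratin gene krt4 was at 0.78, 0.73 and 1.16 TPM in W-hybrid germ cells and at 0.21, 0.51 and 0.29 TPM in Z-hybrid germ cells at 10 dpf, against 5944 and 11576 TPM in trunk. Its mean in W-hybrid germ cells was 0.010% of that in trunk, while the share for epcam was 3.78%. The epidermal claudin cldne was at most 0.11 TPM in W-hybrid and 0.22 TPM in Z-hybrid germ cells at 10 dpf, against 349 and 647 TPM in trunk.

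The share of the trunk level that 10-dpf germ cells held spread widely over the epidermal list. In W-hybrid germ cells, 17 of the 27 genes had a smaller share than epcam, and the median share was 2.17%. In Z-hybrid germ cells 11 of the 27 had a smaller share than epcam, and the median was 2.08%. Over all 23798 genes above 0 TPM in trunk, the median share was 160.4% in the W-hybrid, and 6.77% of these genes had a smaller share than epcam. In the Z-hybrid the median share was 191.6%, and 4.15% of the genes had a smaller share than epcam. Among the 970 genes over 100 TPM in both trunk libraries, as epcam was, the median share was 66.1% in W-hybrid germ cells. In Z-hybrid germ cells it was 66.3%. Of these abundant genes, 19.4% in the W-hybrid and 12.7% in the Z-hybrid had a smaller share than epcam. The annexin gene anxa1b had a like share in both hybrids, 8.69% in the W-hybrid and 8.64% in the Z-hybrid. The epithelial transcription factor gene GRHL2 was at 1.91 TPM in W-hybrid and 4.74 TPM in Z-hybrid germ cells, against 0.995 TPM in trunk.

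**Figure D2:**
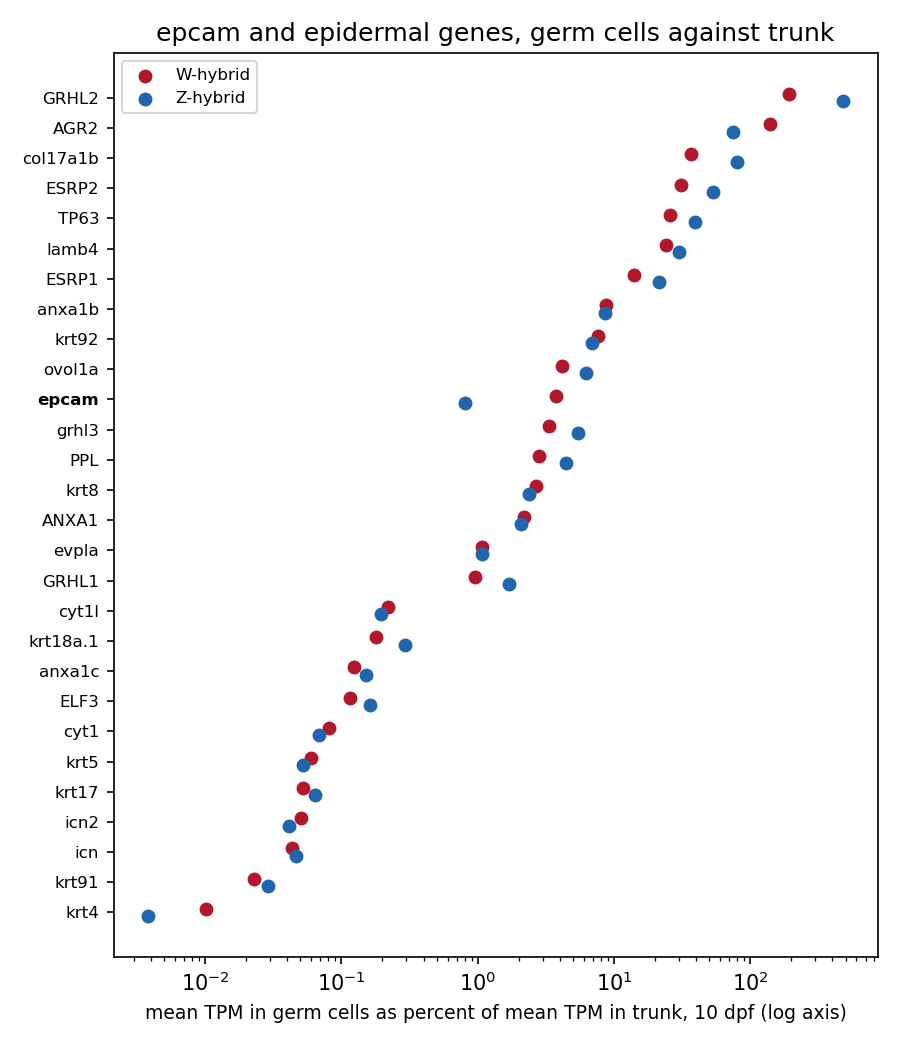
For epcam and the 27 epidermal genes, points show the mean TPM in 10-dpf W-hybrid (red) and Z-hybrid (blue) germ cells as a percentage of the mean in trunk, on a log axis. The keratin gene krt4 has the lowest share and GRHL2 the highest, and epcam (3.78% in W-hybrid and 0.80% in Z-hybrid germ cells) lies between them.

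The summed level of epidermal genes did not follow that of epcam across the germ cell libraries. The summed TPM of the 27 epidermal genes at 10 dpf lay between 133 and 175 in W-hybrid germ cells and between 164 and 181 in Z-hybrid germ cells. By Smart-seq at 12 dpf it lay between 159 and 211 in the W-hybrid and between 110 and 241 in the Z-hybrid, so that the hybrids overlapped at both ages. By Quartz-seq it was 271 and 282 in the W-hybrid and 287 in the Z-hybrid at 12 dpf, and 273 and 323 in the W-hybrid and 235 in the Z-hybrid at 14 dpf. Over the 14 Smart-seq germ cell libraries, Pearson's r between epcam and this sum was -0.13 on the log2 scale, a description over libraries that share method and differ in depth. One Z-hybrid library at 12 dpf, replicate 3, had the highest krt4 of the germ cell libraries, at 5.91 TPM, and its epcam was 16.7 TPM.

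**Figure D3:**
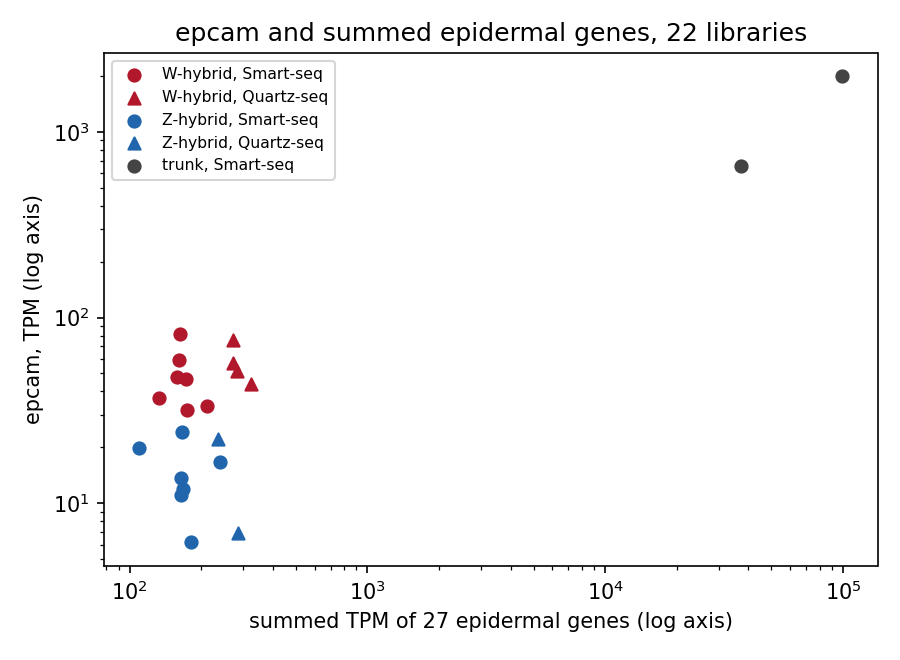
Each point is 1 of the 22 libraries, with the summed TPM of 27 epidermal genes on the horizontal log axis and epcam in TPM on the vertical log axis. W-hybrid (red) and Z-hybrid (blue) germ cells overlap in their epidermal sums, which run from 110 to 323, and separate in epcam, while the trunk libraries (grey) are high in both.

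Between the hybrids, 1 of 25 tested epidermal genes was called higher in 10-dpf W-hybrid germ cells and none lower, where 3.06% of 20080 genes were called higher and 4.07% lower. That gene was AGR2, which encodes a protein of secretory cells and which was at 14.6 TPM in W-hybrid and 7.92 TPM in Z-hybrid germ cells. Many of the tested epidermal genes, krt4 and krt5 among them, had means below 5 TPM in both hybrids and could not be called. In the trunk libraries AGR2 was at 4.18 and 17 TPM, below both germ cell means in one and above both in the other. At 12 dpf by Smart-seq none of the 25 genes was called by edgeR or DESeq2 and 0 had an unadjusted p under 0.05, where 0.0797% of 20066 genes were called higher and 0.0648% lower. The split of all calls at 10 dpf depended on the scaling, 42.9% of them being higher in the W-hybrid, or 24.3% by library size alone. By Quartz-seq, with 1 Z-hybrid library at each age, epidermal genes went both ways between the hybrids. Of 25 tested, 15 had a log2 fold change above 0 at 12 dpf and 13 at 14 dpf. The median of the list was 0.62 at 12 dpf, beside 0.33 over all genes. At 14 dpf it was 0.09, beside 0.31.

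Of the genes whose products bind EpCAM in mammals, both claudin-7 genes were measured. At 10 dpf, cldn7a was at 8.60, 5.29 and 7.11 TPM in W-hybrid germ cells, against 4.15, 2.45 and 1.97 TPM in Z-hybrid germ cells, without overlap. It rose by a log2 fold change of 1.52 with a standard error of 0.32 (edgeR, adjusted p = 0.00823). At 12 dpf by Smart-seq, cldn7a averaged 6.50 TPM in the W-hybrid, against 3.03 TPM in the Z-hybrid, with overlapping ranges and no call (log2 fold change 1.08, standard error 0.38, adjusted p = 0.394). By Quartz-seq the order was the other way round, with 2.50 and 2.58 TPM in the W-hybrid, against 9.14 TPM in the Z-hybrid at 12 dpf, and 5.62 and 5.53 against 15.6 TPM at 14 dpf. Unlike epcam, cldn7a was almost absent from trunk, at 0.27 and 0.10 TPM, and was called higher in W-hybrid germ cells (log2 fold change 4.49, standard error 0.60, adjusted p = 6.89e-05).

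The paralog cldn7b was at 21.4, 16.3 and 21.8 TPM in W-hybrid germ cells at 10 dpf, against 15.4, 15.7 and 11.7 TPM in Z-hybrid germ cells. It rose in the W-hybrid by a log2 fold change of 0.65 with a standard error of 0.17 (edgeR, adjusted p = 0.0232), but the call was lost by library size alone (adjusted p = 0.0573). Without W-hybrid replicate 1 neither claudin-7 gene was called (adjusted p = 0.113 for cldn7b and 0.0619 for cldn7a), with log2 fold changes of 0.61 and 1.35. The call of cldn7b was also lost without Z-hybrid replicate 1 (adjusted p = 0.0634, log2 fold change 0.67) and replicate 3 (0.076, log2 fold change 0.55). The fit of all 14 Smart-seq libraries called neither gene, at log2 fold changes of 0.66 for cldn7b and 1.53 for cldn7a. The 12-dpf Smart-seq means of cldn7b were 12.6 TPM in the W-hybrid, against 10.2 TPM in the Z-hybrid. In trunk, cldn7b was at 103 and 145 TPM, and it fell in both hybrids against trunk, by 3.45 on the log2 scale in W-hybrid and by 4.12 in Z-hybrid germ cells.

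The tetraspanins cd9a and cd9b, of the membrane domains that hold EpCAM in mammals, were not called between the hybrids by Smart-seq in the edgeR fits reported. At 10 dpf, cd9b averaged 12.6 TPM in W-hybrid and 14.6 TPM in Z-hybrid germ cells, against 570 TPM in trunk. The adhesion receptor gene cd44a stayed at or below 6.59 TPM in every germ cell library. E-cadherin, encoded by cdh1, is the calcium-dependent adhesion molecule of epithelia. At 10 dpf, cdh1 was at 53.6, 40.9 and 39.9 TPM in W-hybrid germ cells, against 64.7, 45.6 and 46.5 TPM in Z-hybrid germ cells, so that the hybrids overlapped. The mean of cdh1 in W-hybrid germ cells was 52.5% of that in trunk, a much larger share than for epcam.

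None of the protease and inhibitor genes that act on EpCAM in mammals was called between the hybrids by Smart-seq in the edgeR fits reported. The matriptase genes were st14a, at 15.5 TPM in W-hybrid and 14.2 TPM in Z-hybrid germ cells at 10 dpf, and st14b, at 2.27 and 4.36 TPM in the same order. The matriptase inhibitor gene spint1a averaged 47.3 TPM in W-hybrid and 47.9 TPM in Z-hybrid germ cells, and spint2 averaged 101 and 82.4 TPM. The inhibitor gene spint1b was higher in germ cells than in trunk, with 93.8, 74.3 and 105 TPM in the W-hybrid and 116, 103 and 70.5 TPM in Z-hybrid germ cells, against 14.2 and 29.4 TPM in trunk. Its log2 fold change over trunk was 1.22 with a standard error of 0.36 in the W-hybrid (edgeR, adjusted p = 0.0111) and 1.1 with a standard error of 0.36 in the Z-hybrid (adjusted p = 0.0183). Without trunk replicate 1, none of the 20 genes was called higher in Z-hybrid germ cells than in trunk.

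The shedding and signalling genes were not called between the hybrids by Smart-seq in the edgeR fits reported either. Both ADAM17 genes and both FHL2 genes had means below 5 TPM in each hybrid at both Smart-seq ages, so they could not be called. In spint2, PSENEN and PSEN2 the adjusted p at 10 dpf was under the threshold (edgeR, 0.0294, 0.0162 and 0.046) but the fold change was under 1.5. The 2 genes with the symbol ADAM17 averaged 4.06 TPM (ENSDARG00000043213) and 1.16 TPM (ENSDARG00000093093) in W-hybrid germ cells at 10 dpf, and 3.85 and 1.92 TPM in Z-hybrid germ cells. The gamma-secretase subunit gene PSENEN averaged 105 TPM in the W-hybrid, against 81.0 TPM in the Z-hybrid. Both genes with the symbol FHL2 were at or below 3.90 TPM in all germ cell libraries, and 1 of them (ENSDARG00000042018) was at 22.4 and 40.2 TPM in trunk. The transcription factor gene LEF1 averaged 2.69 TPM in W-hybrid and 5.13 TPM in Z-hybrid germ cells at 10 dpf, against 49.5 TPM in trunk.

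As a list, the genes of EpCAM binding, cleavage and signalling held 20 tested members by Smart-seq. At 10 dpf both claudin genes were called higher in W-hybrid germ cells, none was called lower and 18 were not called, where 3.06% of all genes were higher and 4.07% lower. These counts were 1 higher and 1 lower by library size alone, 3 and 0 by DESeq2, and 0 and 0 in the fit of all 14 Smart-seq libraries, which called 183 genes in all, against 1433. Library size alone and DESeq2 thus each called a member other than the claudin-7 genes. The median log2 fold change of the list was 0.06, beside -0.04 over all genes. At 12 dpf by Smart-seq none was called by edgeR or DESeq2 and 4 of 20 had an unadjusted p under 0.05, with a median of -0.10 beside -0.01 over all genes. Against trunk, 2 of 20 were called higher and 14 lower in W-hybrid germ cells, with a median log2 fold change of -1.84, and 1 and 14 in Z-hybrid germ cells, with a median of -1.81. Over all genes, 23.0% were higher and 19.9% lower in W-hybrid germ cells, and 23.7% and 19.6% in Z-hybrid germ cells. By Quartz-seq, W-hybrid germ cells of 12 dpf had 8 of 21 members called higher and 1 lower, where 13.3% and 8.14% of 23154 genes were, and none and 1 at 14 dpf, where 4.23% and 4.95% were. These rest on 1 Z-hybrid library at each age, which the fit assumes to vary like the other groups, so the calls cannot be told apart from that library. In the 12-dpf library cldn7b was at 0.09 TPM, st14a at 1.03 TPM and PSENEN at 0 TPM, and their means in the W-hybrid were 20.4, 33.5 and 16.5 TPM.

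**Figure D4:**
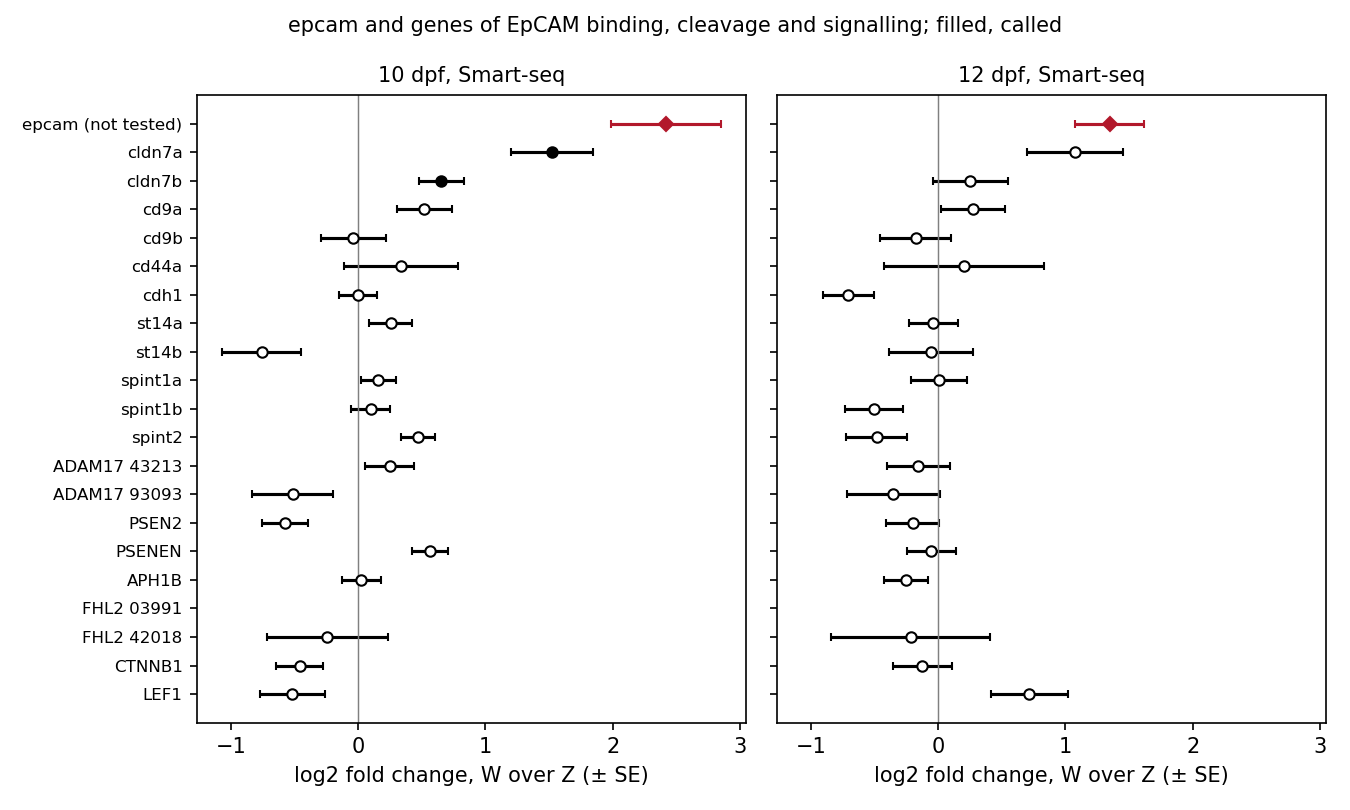
Log2 fold changes, W-hybrid over Z-hybrid, with standard errors, for epcam (red, not tested) and 20 of the 21 genes of EpCAM binding, cleavage and signalling at 10 dpf (left) and 12 dpf (right) by Smart-seq. Filled points mark the called genes, cldn7a and cldn7b at 10 dpf. Genes that share a symbol carry the end of their Ensembl identifier, and 1 of the FHL2 genes had too few counts to be tested.

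A wider list of 50 cell junction genes, which shares cdh1, CTNNB1 and the claudin-7 genes with the first, had 4 members called higher in 10-dpf W-hybrid germ cells and 3 called lower, of 45 tested (3.06% and 4.07% of all genes), and the fit of all 14 Smart-seq libraries called none of 46. In the fit of the 10-dpf libraries the tight junction gene oclnb (occludin) rose, with 5.23 TPM in the W-hybrid, against 2.64 TPM in the Z-hybrid, as did f11r.1 (junctional adhesion molecule), with 109 and 82.3 TPM. The genes that fell were nectin3b (nectin), with 10.9 TPM in the W-hybrid, against 24.8 TPM in the Z-hybrid, ctnna1 (alpha-catenin), with 14.8 and 30.0 TPM, and CDH2 (N-cadherin), with 21.6 and 39.6 TPM. By library size alone the list counted 2 higher and 5 lower, and at 12 dpf by Smart-seq none of 45 was called by edgeR or DESeq2, while 5 had an unadjusted p under 0.05. The median log2 fold change of the list was -0.19 at 10 dpf and 0.13 at 12 dpf. Against trunk, 28 of 48 junction genes were called lower in W-hybrid germ cells and 3 higher, beside 19.9% and 23.0% of all genes. Those higher were cldn7a, CTNNA2 (an alpha-catenin) and the claudin gene cldng, the last at 32.8 TPM in W-hybrid germ cells and 3.02 TPM in trunk. The most abundant junction gene of trunk, cldnb, averaged 1430 TPM there and 0.29 TPM in W-hybrid germ cells at 10 dpf.

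Signs of other cells in the sorted libraries were compared with epcam. The 17 muscle genes summed to 217 to 249 TPM in W-hybrid and 168 to 231 TPM in Z-hybrid germ cells at 10 dpf, and of 15 tested, ACTA1 and tpma were called higher in W-hybrid germ cells and none lower, beside 3.06% and 4.07% of all genes. The 12-dpf Smart-seq libraries summed to 252 to 303 TPM in the W-hybrid, against 206 to 242 TPM in the Z-hybrid, without overlap, and r with epcam over the 14 Smart-seq libraries was 0.50. Against trunk, 10 of the 17 were called lower in W-hybrid germ cells and 1 higher (19.9% and 23.0% of all genes), but without trunk replicate 1, the one rich in muscle genes, 3 were lower and 5 higher, and the median log2 fold change turned to 2.37, against -3.24. In 1 W-hybrid library by Quartz-seq at 12 dpf the muscle sum was 3306 TPM, and 342 TPM in the other, while epcam in these libraries was 51.8 to 56.6 TPM. The part of muscle in the difference of epcam was not tested. The sums of 7 blood and 15 gut and pancreas genes overlapped between the hybrids at both Smart-seq ages, as did those of 19 gonadal somatic genes. At 10 dpf the lowest germ cell sum was 24.0 TPM for gut and pancreas genes, against 4.11 and 5.36 TPM in trunk. For gonadal somatic genes it was 33.3 TPM, against 7.06 and 9.06 TPM. Against trunk, the median log2 fold changes in W-hybrid germ cells were 4.23 and 5.07 in that order, and -8.66 for blood genes. Called higher were 2 of 9 tested gut and pancreas and 1 of 15 gonadal somatic genes, while 5 of 5 blood genes were lower. The source of these RNAs was not tested. The germ cell list was lower in the W-hybrid for 2 of 15 genes at 10 dpf, PIWIL2 and TDRD9 (4.07% of all genes), or for 1 by DESeq2. Its sum overlapped between the hybrids at both Smart-seq ages, but only narrowly at 10 dpf, at 3765 to 5532 TPM in the W-hybrid, against 5490 to 6874 TPM in the Z-hybrid. Over the 14 Smart-seq libraries, r of the summed list with epcam was -0.53 for germ cell genes and 0.41 for blood genes. It was -0.18 for gut and pancreas, -0.19 for gonadal somatic and -0.49 for junction genes. The fit of all 14 Smart-seq libraries called no gene of the epidermal, muscle or germ cell list between the hybrids at 10 dpf.

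Genes that ran most like epcam were found by Pearson's r of log2(TPM + 1) over the 14 Smart-seq germ cell libraries, among 10950 genes with a mean above 5 TPM. The 10 highest were si:dkey-183k8.1 (r = 0.88), S100A1, si:ch73-335m24.8, si:ch211-62a1.4, spata6l, si:ch211-160m12.5, ENSDARG00000097122, cmc4, prrg1 and GUK1 (r = 0.84). The libraries share the contrast of the hybrids, for which epcam was chosen, so these genes were largely ones higher in the W-hybrid. The largest ratio of means at 10 dpf among them was that of ENSDARG00000097122, with 22.5 TPM in the W-hybrid, against 3.37 TPM in the Z-hybrid. Over both Smart-seq ages this gene was at 19.4 to 30.5 TPM in the W-hybrid, against 3.06 to 6.53 TPM in the Z-hybrid. None of the 10 resembled epcam in trunk, where si:dkey-183k8.1 was at 0.14 TPM, S100A1 at 0.89 TPM and spata6l at 2.46 TPM on average, and the highest was GUK1 (guanylate kinase) at 35.4 TPM.

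The lowest r belonged to HNRNPK (r = -0.92), an RNA-binding protein gene, followed by kctd1, C19H6orf62, rab5b and nudt7. Of these, rab5b was at 0.55 to 1.51 TPM in the W-hybrid, against 8.27 to 14.6 TPM in the Z-hybrid by Smart-seq. When deviations from the group means alone were used, the highest r were those of si:ch211-253d24.2 (r = 0.89), cenph, si:ch211-151h10.2, si:ch1073-228h2.2 and mrap, and none of these separated the hybrids. Over 13 ranked genes of EpCAM binding, cleavage and signalling the median r with epcam was -0.27, and over all ranked genes it was -0.17. The epidermal list had a median r of -0.22 over 9 ranked genes, with the highest at 0.67 for AGR2 and the lowest at -0.53 for TP63.

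Neighbours of epcam were taken in the gene order of the zebrafish assembly GRCz12tu, which differs from the build of the files. Genes that did not match exactly 1 measured gene by name were skipped, so those named need not be adjacent. The nearest matched genes were si:ch73-105b23.6, calm2a, si:ch211-93n23.7, TTC7A and MCFD2 on one side and PLEKHH2, thada, HAAO, pimr154 and si:dkey-112g5.3 on the other. Of these, 8 had enough counts to be tested, and at 10 dpf 1 was called higher and 2 lower, beside 3.06% and 4.07% of all genes. These calls are given for the fit reported only, and the number of all genes called at 10 dpf ran from 183 to 2414 over the settings, against 1433. At 10 dpf MCFD2, a secretory pathway gene, rose in the W-hybrid, with 33.5 TPM against 23.2 TPM in the Z-hybrid, while si:ch73-105b23.6 and TTC7A fell, with 2.83 and 7.21 TPM and with 7.85 and 14.7 TPM in the same order. At 12 dpf by Smart-seq none of the 8 was called. The calmodulin gene calm2a, the nearest matched neighbour with a high level, averaged 84.9 TPM in W-hybrid and 90.7 TPM in Z-hybrid germ cells at 10 dpf.

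The deposited gene length of epcam, a mean over its 2 transcripts weighted by their estimated abundance, was 1377 bases in 11 of the 14 Smart-seq germ cell libraries and between 1103 and 1377 bases in all. The shortest value belonged to the Z-hybrid Quartz-seq library at 12 dpf with 39 counts. In trunk, where counts were highest, it was 1370 and 1372 bases.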

How the data were processed

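RNA was sequenced from sorted germ cells and trunk cells in 22 libraries. According to the submitters' processing notes, reads were mapped with STAR 2.7.7a to GRCz11 and quantified with RSEM 1.3.1. The authors deposited, for each library, the expected count per gene, which RSEM estimates by sharing reads that map to several genes, and the TPM, which is scaled for effective length and library total. The deposited gene length, a mean over transcripts, was used only as given. Libraries were grouped by hybrid, age and method. Protocol text names Smart-seq for all samples, whereas the descriptions give Quartz-seq for 6 of them, and the descriptions were followed.

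Expected counts were rounded and tested in R 4.3.3 with edgeR 4.0.16 (TMM, filterByExpr, robust quasi-likelihood fits) on the libraries of each comparison, the 3 groups of 10 dpf for trunk and the 6 Quartz-seq libraries for that method. P-values were adjusted by Benjamini-Hochberg over all genes tested. After the study's methods, a call needed a change of 1.5-fold or more, an adjusted p below 0.05 and a mean above 5 TPM in the higher group. A gene below that level in both groups could not be called, whatever its fold change. Standard errors were derived from the F statistic, as the size of the log2 fold change over its square root. The fits were tested on simulated data. Alternatives were DESeq2 1.42.0, library size alone, no filter, a wider fit, a term for the replicate number and leaving out each library. For the gene lists and the claudin-7 genes they were chosen after seeing the data.

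Named genes were epcam, the 21 genes of EpCAM binding, cleavage and signalling found by symbol, members of other hand-made lists that were called between the hybrids or abundant in trunk, the 10 highest and 5 lowest genes by likeness and 5 by likeness within groups, and the 5 neighbours on each side. Values of 1 gene of EpCAM cleavage are not reported here, though it is counted in its list. Not all called members are named, and 2 of the genes named after clones are given by identifier. Symbols came from a table that covers 28988 of the 32057 identifiers (90.4%). The gene, the lists and the comparisons were chosen with earlier results of these data known. A deposited table of raw counts over the series was not used. Libraries of a group differed from each other in at least 23253 genes, so none was a duplicate.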

Additional observations from a re-analysis of the deposited data

Results flagged for a closer look

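Among epcam, the 21 genes of EpCAM binding, cleavage and signalling and the 8 list sums, 60 sets of values in the groups of 4 libraries were examined for a library far from the other 3, of which chance alone singles out about 1 in 20, and 2 stood out. The claudin gene cldn7b was at 20.3 TPM in W-hybrid replicate 1 at 12 dpf by Smart-seq, against 9.70 to 10.7 TPM in the other libraries of that group. The summed TPM of 15 gut and pancreas genes was 49.3 in W-hybrid replicate 3 at 12 dpf by Smart-seq, against 30.5 to 32.5 in the others. The epcam values themselves were not singled out in either group.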

How the results depend on the processing

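Alternative values of epcam were counted as unchanged if they kept the direction and the side of the threshold, so a small change of sign near 0 counted as changed. Such values were 10 of 12 in the W-hybrid and 11 of 12 in the Z-hybrid at 12 over 10 dpf. They were 7 of 9 in the W-hybrid at 14 over 12 dpf, 11 of 11 between the methods and 10 of 10 for each hybrid against trunk. Comparisons between the hybrids chose the gene and were not tested, so they are left out of these counts. In the W-hybrid at 12 over 10 dpf the log2 fold change of epcam ran from -0.39 to 0.37 with 1 library left out, being 0.02 without 12-dpf replicate 3 and 0.37 without 10-dpf replicate 1, against -0.14. In the Z-hybrid it ran from 0.66 to 1.23 in such fits, against 0.96. At 14 over 12 dpf by Quartz-seq it ran from -0.46 to 0.28 with 1 library left out and was 0.073 by library size alone, against -0.03. Against the Z-hybrid by Quartz-seq at 12 dpf it was 3.30 by DESeq2 and 3.29 with the replicate block, against 3.48. The cause was not tested.

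With so few libraries per group, it could not be settled whether the replicate numbers pair the libraries. Deviations of same-numbered Smart-seq germ cell libraries correlated at -0.16 to 0.20. Between 12 and 10 dpf, 2 of 3 Z-hybrid and 1 of 3 W-hybrid libraries correlated best with their own number. Between the hybrids, 1 of 3 did so at 10 dpf and 2 of 4 at 12 dpf. Quartz-seq and trunk libraries were not examined in this way. With a replicate block the log2 fold change of epcam in W- over Z-hybrid, which was not tested, was 2.33 at 10 dpf and 1.39 at 12 dpf by Smart-seq. In the comparisons of ages, of methods and with trunk, where epcam was tested, the block changed no call of it.

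Counts of called genes moved by over 1.5 times in several comparisons. They ran from 183 to 2414 for the hybrids at 10 dpf (1433 in the fit reported), from 18 to 99 at 12 dpf by Smart-seq (29) and from 2005 to 4442 at 14 dpf (2126). Between ages they ran from 0 to 443 in the W-hybrid (37), from 0 to 1555 in the Z-hybrid (8) and from 1 to 80 by Quartz-seq (3). Of the 10 genes most like epcam, 5 were also among the 10 by Spearman's rho, 9 with a pseudocount of 0.1, 6 with a minimum mean of 1 TPM, and 0 over all 20 germ cell libraries. Of the libraries, the Z-hybrid one by Quartz-seq at 12 dpf had the fewest epcam counts, 39.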

Other observations

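The 8 transcription and splicing factors of epithelia on the epidermal list spread widely in the share of their trunk level that sorted germ cells held at 10 dpf. TP63, a master regulator of the basal epidermis, averaged 13.8 TPM in W-hybrid and 21.3 TPM in Z-hybrid germ cells at 10 dpf, against 53.8 TPM in trunk, so that germ cells held 25.6% and 39.5% of the trunk level. The epithelial splicing factor genes ESRP1 and ESRP2 averaged 6.10 and 9.77 TPM in W-hybrid and 9.30 and 16.6 TPM in Z-hybrid germ cells, against 43.8 and 31.3 TPM in trunk. GRHL2, an epithelial transcription factor gene, averaged 1.91 TPM in W-hybrid and 4.74 TPM in Z-hybrid germ cells, against 0.995 TPM in trunk. In W-hybrid and Z-hybrid germ cells the shares were 0.12% and 0.16% for ELF3, 0.95% and 1.69% for GRHL1, 3.36% and 5.44% for grhl3 and 4.17% and 6.25% for ovol1a. Among the keratins the largest shares were 7.67% and 6.85% for krt92, which averaged only 6.955 TPM in trunk. The next keratin, krt8, had 2.66% and 2.37%, below grhl3 and ovol1a. The mean of each of the 8 transcription and splicing factor genes at 10 dpf was lower in W-hybrid than in Z-hybrid germ cells. None of the 8 was called between the hybrids by Smart-seq. Of them, GRHL1, GRHL2, grhl3, ovol1a and ELF3 had means below 5 TPM in each hybrid at both ages, so they could not be called. In the whole epidermal list, 12 of 25 tested genes had a log2 fold change above 0 at 10 dpf. Of all 20080 genes tested, 22.6% had every W-hybrid library below every Z-hybrid library and 9.28% above. At 12 dpf by Smart-seq the means of TP63, ESRP1, ELF3 and ovol1a were higher in the W-hybrid, and those of ESRP2, GRHL1, GRHL2 and grhl3 lower.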
